A study of Mus musculus with 9 samples.

Results

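The cell cycle genes are a list of 51 genes that drive or mark cell division, and all 51 were found by their symbols among the 24013 genes of the files. Of these, 22 act in or mark mitosis, among them Pttg1, which encodes securin, and 29 act earlier in the cycle, as cyclins, kinases, inhibitors, licensing factors and enzymes of DNA synthesis. RNA was measured in beige adipocytes, the fat cells of subcutaneous depots that can be induced to express the uncoupling protein UCP1. The study asks how genetic variation between mouse strains bears on this browning. It compared adipocytes of 129X1/SvJ mice (129), of C57BL/6J mice (B6) and of F1 offspring of a cross between these strains. The series describes 129 as resistant to obesity and B6 as prone to it. Each group had 3 libraries of poly(A) RNA.

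All 9 libraries were made at day 7 from cells of the stromal vascular fraction of inguinal fat, the non-adipocyte cells of that depot. All were kept for 48 h from confluence in 10% serum with 850 nM insulin, 1 nM T3, 1 µM rosiglitazone, 1 µM dexamethasone, 0.5 mM isobutylmethylxanthine and 125 nM indomethacin. After that, serum, insulin, T3 and rosiglitazone continued in all groups at those doses. The labels give neither the age of the mice, nor the mother strain of the F1, nor whether each library stands for its own animal or culture. The p-values therefore measure only the spread between these libraries, which may be technical.

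Cells enter the cycle when D-type cyclins with Cdk4 or Cdk6, and then cyclin E with Cdk2, inactivate the retinoblastoma protein and free E2F factors, which switch on genes of DNA synthesis. Mitosis is driven by Cdk1 with A- and B-type cyclins, and ends when the anaphase promoting complex, loaded by Cdc20, has securin destroyed, so that separase can open the cohesin rings between sister chromatids. In preadipocyte lines, confluent cells divide again early after hormonal induction, and mature adipocytes have largely left the cycle.

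Depth was 39686986 to 53410947 assigned reads in F1, 23710908 to 28473083 in 129 and 19130022 to 26931438 in B6, so all F1 libraries were deeper than all parental ones. The values are RPKM, assigned reads scaled for exon length and for depth. Marker genes of fat cells and of other cell types were read. The beige identity was not checked, since Ucp1 was not among these markers. The summed RPKM of 10 markers of mature adipocytes was 35336 to 37615 in F1, 31309 to 33620 in 129 and 27266 to 31220 in B6, and none of them was at 0. The sum of 10 markers of adipocyte progenitors was 601 to 691 in F1, 774 to 817 in 129 and 751 to 889 in B6. For smooth muscle and pericytes, 7 markers summed to 104 to 111 in F1, 131 to 139 in 129 and 133 to 149 in B6. Macrophage markers (10 genes) summed to 40.2 to 60.0 in F1, 22.5 to 49.4 in 129 and 46.9 to 59.1 in B6. Endothelial markers (7 genes) summed to 4.74 to 5.03 in F1, 3.11 to 4.01 in 129 and 5.74 to 7.01 in B6, without overlap, and lymphocyte markers (6 genes) lay between 0.158 and 0.397 in all libraries.

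Because most mitotic members were low together in F1, the DNA just upstream of their RefSeq start sites is shown for a few of them. Genes of this phase are known to carry a cell cycle homology region, whose core is often written TTTGAA, and CCAAT boxes bound by the factor NF-Y. The 250 bases before the start site were read on the gene's strand from the RefSeq table, build GRCm38.p6, for Ccnb2 (cyclin B2) at chr9:70421555-70421804 on the minus strand, Cdc20 at chr4:118437344-118437593 on the minus strand, and the mitotic kinase gene Plk1 at chr7:122159185-122159434 on the plus strand. Capitals mark each TTTGAA or CCAAT, and their reverse complements TTCAAA and ATTGG.
Ccnb2: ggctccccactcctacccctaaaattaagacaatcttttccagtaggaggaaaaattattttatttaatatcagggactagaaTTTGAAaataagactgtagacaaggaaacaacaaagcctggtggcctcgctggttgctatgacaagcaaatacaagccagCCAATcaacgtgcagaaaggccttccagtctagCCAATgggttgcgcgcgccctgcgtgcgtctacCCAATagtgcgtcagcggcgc
Cdc20: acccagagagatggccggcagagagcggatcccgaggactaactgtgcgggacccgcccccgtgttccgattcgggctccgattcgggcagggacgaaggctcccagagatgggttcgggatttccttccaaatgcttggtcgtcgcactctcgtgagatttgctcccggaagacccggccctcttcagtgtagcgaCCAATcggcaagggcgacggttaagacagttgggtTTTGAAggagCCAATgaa
Plk1: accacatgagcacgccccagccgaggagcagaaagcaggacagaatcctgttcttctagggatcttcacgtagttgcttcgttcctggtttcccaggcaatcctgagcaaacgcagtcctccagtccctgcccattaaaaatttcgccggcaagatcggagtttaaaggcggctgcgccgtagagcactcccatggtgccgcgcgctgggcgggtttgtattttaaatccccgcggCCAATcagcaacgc
Such a window was at hand for 41 members, and that of Pttg1 was left out because it lies inside the annotated gene. A CCAAT box on either strand was found in 16 of 18 windows of mitotic members (88.9%), which belong to 17 genes, in 12 of 28 windows of the other members, and in 33.8% of all 32851 windows. TTTGAA on either strand was found in 8 of the 18 mitotic windows (44.4%), in 2 of the 28 others and in 16.0% of all windows. In the printed windows no matches overlap one another. A match describes the letters only, and says nothing of whether a factor binds.

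On the RPKM scale, which is per length, levels differed by role. Most early regulators were abundant and the mitotic genes were near the limit of testing. The most abundant member was Cdkn1a, the inhibitor p21, at 197 ± 5.37 RPKM in F1, 171 ± 8.07 in 129 and 260 ± 12.1 in B6 (SD, n = 3 each, as in all values below). Cdk4, the kinase of the D cyclins, had the highest mean of its group over all libraries, though not in B6, where Ccnd2 was higher. Cdk4 stood at 68.4 ± 4.50 RPKM in F1, 73.4 ± 1.07 in 129 and 71.8 ± 1.81 in B6. Rb1, which encodes the retinoblastoma protein, stood at 22.8 ± 1.30 RPKM in F1, 22.6 ± 0.614 in 129 and 21.8 ± 0.451 in B6. Neither Cdk4 nor Rb1 nor E2f1, the E2F factor on the list, passed the test in any contrast. The smallest adjusted p of these 3 genes was 0.152, for Cdk4 in F1 against 129.

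Mitotic members other than Pttg1 had RPKM of 0.276 to 6.75 in single libraries, each from 44 to 548 reads. Cdk1, the kinase of mitosis, was at 3.36 ± 0.269 RPKM in F1, 3.57 ± 0.152 in 129 and 4.04 ± 0.0286 in B6. All 51 members had reads in every library, with 21 reads as the lowest count. A gene was tested where its RPKM reached 1 in at least 3 libraries, which held for 42 members and 11542 genes in all. The 9 members not tested were Ccne2, Cdk6, Cdt1, Cdc6, Cenpe, Kif11 and Bub1, which reached 1 in no library, and Foxm1 and Bub1b, which reached it in 2. The nearest members inside the filter were Nusap1 with 3 libraries and Mki67 with 6. The number of members that passed through 1 group only was 0. Mki67 and Nusap1 passed through parental libraries alone, since neither reached RPKM 1 in any F1 library.

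**Figure D1:**
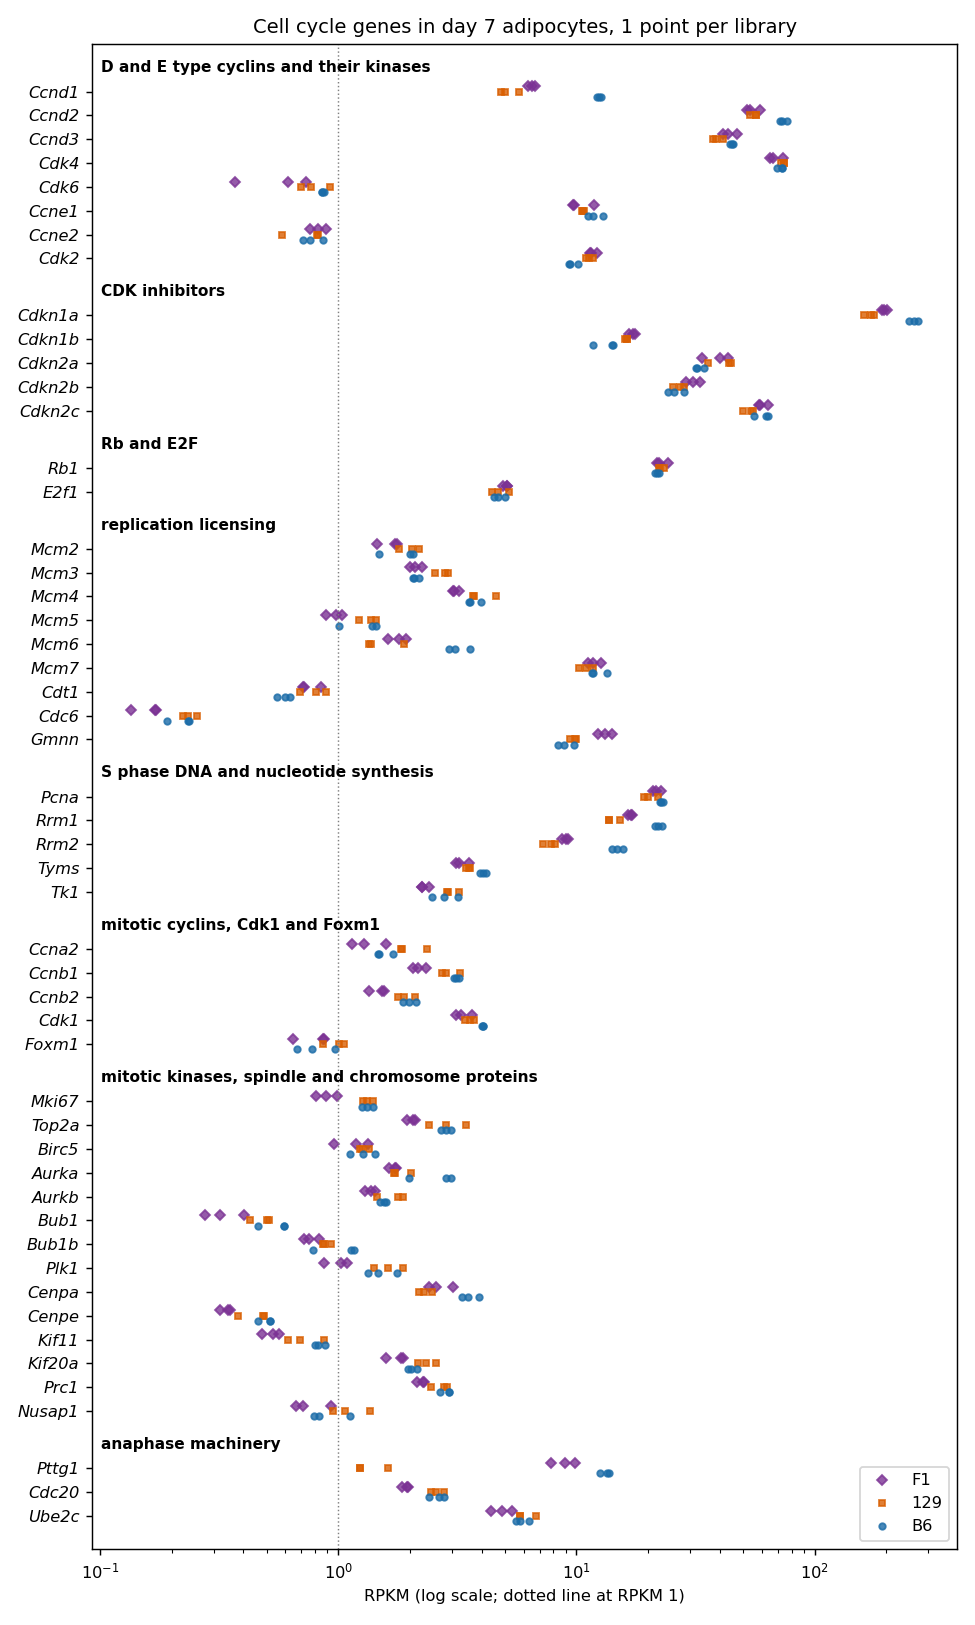
RPKM of the 51 cell cycle genes in each library (log axis, dotted line at RPKM 1), grouped by role, with F1, 129 and B6 as separate symbols. Mitotic genes other than Pttg1 lie between 0.276 and 6.75 RPKM, and Pttg1 in 129 drops to their level.

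Pttg1, or securin, holds separase inactive until anaphase. Its exons lie on mm9 chromosome 11 between 43233750 and 43239750 on the minus strand, in 5 exons of 1738 bases. Its RPKM was 9.89, 7.79 and 8.98 in F1, 1.62, 1.23 and 1.24 in 129, and 13.5, 13.7 and 12.5 in B6. These values rest on 682, 723 and 784 reads in F1, 67, 61 and 51 in 129, and 602, 454 and 586 in B6. All F1 libraries lay below all B6 libraries and above all 129 libraries, with no overlap between any groups.

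Pttg1 was 0.103 times as high in 129 as in B6, by group means. On the log2(RPKM + 1) scale, which understates changes of low genes, the difference of 129 minus B6 was -2.59 (SE 0.09, limma adjusted p = 5.03e-09), the fifth-largest fall of any gene tested. It was -3.28 in a fit on the recovered reads. F1 had 0.672 times the B6 mean, with a log2 difference of -0.53 (SE 0.09, limma adjusted p = 0.00109), and 6.52 times the 129 mean, with a log2 difference of 2.06 (SE 0.09, limma adjusted p = 1.4e-07). Against the mean of both parental log2 values, F1 was higher by 0.77 (SE 0.07, limma adjusted p = 0.000108), but against the parental mean taken on the RPKM scale it was higher by 0.25 (limma adjusted p = 0.0467). The F1 libraries stood at 1.36, 1.07 and 1.23 times that RPKM mean. An exact two-sided permutation test of 3 libraries against 3 gave p = 0.1 for each pair of groups, the smallest p this design allows.

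The other mitotic genes were then read beside Pttg1. Of the 16 tested, Cenpa and Aurka were also lower in 129 than in B6, by less than Pttg1 on the log2 scale, and 14 were not called. Across the 21 of them, the median RPKM per library was 1.55, 1.30 and 1.34 in F1, 2.02, 1.85 and 1.78 in 129, and 1.55, 1.76 and 1.70 in B6. Pttg1 was 6.37, 5.99 and 6.68 times this median in F1, 0.801, 0.667 and 0.696 times in 129, and 8.69, 7.78 and 7.35 times in B6. It thus ranked 1 of 22 mitotic genes in every F1 and B6 library, and 14, 16 and 16 in 129. Relative to Cdk1, Pttg1 was at 2.70, 2.48 and 2.74 in F1, 0.436, 0.361 and 0.345 in 129, and 3.37, 3.38 and 3.08 in B6. These ratios are descriptions without a test.

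Cdc20, which loads securin onto the anaphase promoting complex, had 1.93, 1.96 and 1.85 RPKM in F1, 2.57, 2.78 and 2.46 in 129, and 2.77, 2.40 and 2.64 in B6. Its parental libraries overlapped, and 129 minus B6 was -0.00 on the log2 scale (SE 0.06, limma adjusted p = 0.982). Ube2c, the ubiquitin-conjugating enzyme of that complex, had 4.87 ± 0.487 RPKM in F1, 6.11 ± 0.552 in 129 and 5.89 ± 0.404 in B6, with a difference of 0.04 between 129 and B6 (SE 0.08, limma adjusted p = 0.683). The genes next to Pttg1 on chromosome 11 were also read. Within 500 kb of its start lay 9 other genes, of which 4 were tested.

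Slu7, a splicing factor whose start is 7.48 kb from that of Pttg1, had 9.81 ± 0.273 RPKM in F1, 9.38 ± 0.340 in 129 and 9.81 ± 0.679 in B6. Its libraries overlapped between 129 and B6, with a log2 difference of -0.06 (SE 0.05, limma adjusted p = 0.425). C1qtnf2, a secreted protein of the C1q and TNF related family at 48.1 kb, had 1.82 ± 0.212 RPKM in F1, 3.80 ± 0.497 in 129 and 2.22 ± 0.221 in B6. Its change ran opposite to that of Pttg1, higher in 129 than in B6 by 0.58 (SE 0.09, limma adjusted p = 0.000428). Pwwp2a and Ttc1, at 256 and 322 kb, differed between 129 and B6 by -0.01 and 0.01, both with a limma adjusted p of 0.909. The genes in the window that were not tested were Atp10b, Mir146, Ccnjl, Fabp6 and Adra1b. Of these, Adra1b, an adrenergic receptor gene at 475 kb, ran in the order of Pttg1 with no overlap between groups, at 0.631 ± 0.0464 RPKM in F1, 0.388 ± 0.0952 in 129 and 1.00 ± 0.113 in B6, and was singled out after its values were seen.

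**Figure D2:**
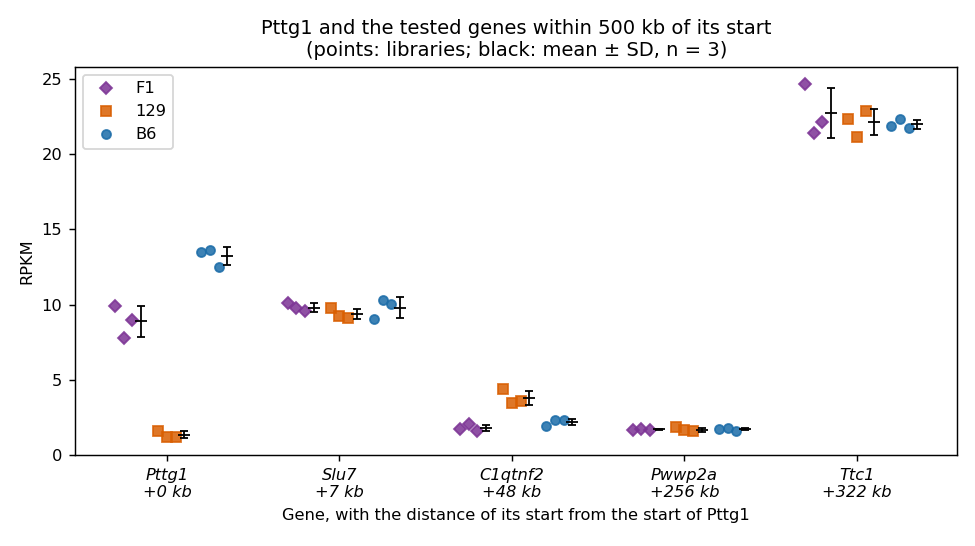
RPKM of Pttg1 and of the 4 tested genes within 500 kb of its start, with 1 point per library in F1, 129 and B6 and the mean ± SD in black (n = 3). Pttg1 averaged 8.89, 1.36 and 13.2 RPKM in F1, 129 and B6, while Slu7 averaged 9.81, 9.38 and 9.81.

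Between 129 and B6, the share of cell cycle genes called was close to that of all genes. Of 42 members tested, 4 were higher and 13 lower in 129 (40.5% called in all), against 37.5% of all genes tested. Calls toward higher made up 15.9% of all genes and calls toward lower 21.7%. The libraries of 129 and B6 did not overlap in 20 of the 42, against 49.9% of all genes. The median log2 difference was 0.01 over the members and -0.03 over all genes. By role, 0 rose and 2 fell among 16 mitotic genes other than Pttg1, whereas 4 rose and 10 fell among the 25 other members tested. At an unadjusted p under 0.05 in limma, 1 of the 16 was higher and 3 were lower, while 5348 of all 11542 genes passed. The genes added among the 16 were Ccna2, higher (log2 difference 0.23, limma adjusted p = 0.0646), and Cdk1, lower (log2 difference -0.14, limma adjusted p = 0.07). With median-of-ratios rescaling Ccna2 was called higher. A test of the difference between the shares of mitotic and other members was not made. Leaving out F1 replicate 1, which enters only the shared spread, gave 4 calls among the mitotic genes. Leaving out B6 replicate 1 or 3, or 129 replicate 2 or 3, gave 1.

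Markers of other cells also differed between 129 and B6. Of 6 tested markers of smooth muscle and pericytes, 4 were lower in 129 and 0 higher, with a median log2 difference of -0.65. Both tested endothelial markers were lower in 129, with a median of -0.54, and 3 of 9 macrophage markers were lower, with a median of -0.47. Of progenitor markers, 4 of 9 were higher and 2 lower. Across all genes 15.9% were higher and 21.7% lower. The part of these markers in the cell cycle differences was not tested.

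Ccnd1, cyclin D1, had 6.52, 6.68 and 6.27 RPKM in F1, 5.73, 4.81 and 4.99 in 129, and 12.5, 12.1 and 12.7 in B6. It was lower in 129 than in B6 (log2 difference -1.12, SE 0.06, limma adjusted p = 1.49e-07), and no libraries overlapped. Ccnd2, cyclin D2, had 55.0 ± 3.57 RPKM in F1, 55.7 ± 1.89 in 129 and 73.7 ± 2.89 in B6, a difference of -0.40 (SE 0.05, limma adjusted p = 0.000174) between 129 and B6. Ccnd3, the third D cyclin, fell to 39.2 ± 1.98 RPKM in 129, against 44.9 ± 0.818 in B6 (log2 difference -0.19, limma adjusted p = 0.018). The kinase Cdk2, partner of cyclin E, was higher in 129 at 11.3 ± 0.383 RPKM than in B6 at 9.61 ± 0.470 (log2 difference 0.22, limma adjusted p = 0.0046). Ccne1, cyclin E1, did not pass the test in any contrast, with 10.4 ± 1.22 RPKM in F1, 10.7 ± 0.0858 in 129 and 12.0 ± 0.891 in B6.

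The CDK inhibitors moved in both directions. Cdkn1a had 202, 196 and 191 RPKM in F1, 161, 173 and 177 in 129, and 261, 248 and 272 in B6. It was lower in 129 than in B6 (log2 difference -0.61, SE 0.05, limma adjusted p = 6.89e-06), with F1 between the parents and no overlap. Cdkn1b, the inhibitor p27, had 17.1 ± 0.537 RPKM in F1, 16.2 ± 0.134 in 129 and 13.3 ± 1.41 in B6, higher in 129 than in B6 by 0.27 (SE 0.06, limma adjusted p = 0.00776). Cdkn2a, a locus whose products include p16, was at 39.0 ± 4.83 RPKM in F1, 41.3 ± 4.93 in 129 and 32.7 ± 1.35 in B6, and was higher in 129 than in B6 by 0.32 (SE 0.10, limma adjusted p = 0.0257). Cdkn2c, the inhibitor p18, was lower in 129 at 53.2 ± 2.67 RPKM than in B6 at 60.4 ± 4.32 (log2 difference -0.18, limma adjusted p = 0.0405).

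In nucleotide synthesis, both subunit genes of ribonucleotide reductase fell. Rrm2, its regulated small subunit, had 9.26, 8.71 and 9.08 RPKM in F1, 8.12, 7.83 and 7.22 in 129, and 14.9, 15.7 and 14.1 in B6. Rrm1, the large subunit, had 16.5, 17.1 and 16.9 RPKM in F1, 15.2, 13.7 and 13.7 in 129, and 22.8, 21.3 and 21.9 in B6. Neither gene overlapped between any groups, and in both the F1 libraries lay between those of the parents and nearer to 129. The differences of 129 minus B6 were -0.87 for Rrm2 (SE 0.05, limma adjusted p = 6.7e-07) and -0.60 for Rrm1 (SE 0.05, limma adjusted p = 4.63e-06).

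Smaller falls were called for Tyms, thymidylate synthase, at 3.52 ± 0.0777 RPKM in 129 and 4.06 ± 0.128 in B6 (log2 difference -0.16, limma adjusted p = 0.0311), and for Pcna, the sliding clamp of the replication fork. Pcna had 20.4 ± 1.37 RPKM in 129 and 22.7 ± 0.345 in B6 (log2 difference -0.15, limma adjusted p = 0.0405). The Pcna call was lost in 10 of 16 alternative settings, that of Cdkn2c in 9 of 16 and that of Tyms in 7 of 15. Those of Cdkn2a, Aurka and Ccnd3 were lost in 5, 4 and 3 settings, most of them with 1 library left out.

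The MCM genes encode the subunits of 1 hexamer, the replicative helicase, but their RNAs did not change together. Mcm6 had 1.80, 1.92 and 1.62 RPKM in F1, 1.88, 1.37 and 1.35 in 129, and 3.59, 2.92 and 3.08 in B6. All B6 libraries lay above all others, and 129 minus B6 was -0.73 (SE 0.09, limma adjusted p = 0.000114). Mcm3 ran the other way, with 2.11 ± 0.123 RPKM in F1, 2.74 ± 0.182 in 129 and 2.11 ± 0.0692 in B6, higher in 129 than in B6 by 0.27 (SE 0.06, limma adjusted p = 0.00424). Mcm7, the most abundant of them at 11.9 ± 0.757 RPKM in F1, 11.0 ± 0.712 in 129 and 12.3 ± 1.01 in B6, did not pass the test in any contrast. Nor did Mcm2, at 1.65 ± 0.169 RPKM in F1, 2.0 ± 0.191 in 129 and 1.85 ± 0.312 in B6.

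The mitotic genes that fell in 129 besides Pttg1 were Cenpa and Aurka. Cenpa, the histone H3 variant of centromeres, had 2.58, 3.04 and 2.41 RPKM in F1, 2.48, 2.29 and 2.18 in 129, and 3.50, 3.32 and 3.92 in B6. It was lower in 129 than in B6 (log2 difference -0.47, SE 0.08, limma adjusted p = 0.000702), without overlap. Aurka, the kinase Aurora A of spindle poles, had 1.63, 1.73 and 1.75 RPKM in F1, 2.02, 1.71 and 1.73 in 129, and 2.82, 1.99 and 2.97 in B6. B6 replicate 2 overlapped the 129 libraries, and the difference of 129 minus B6 was -0.34 (SE 0.10, limma adjusted p = 0.0208).

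**Figure D3:**
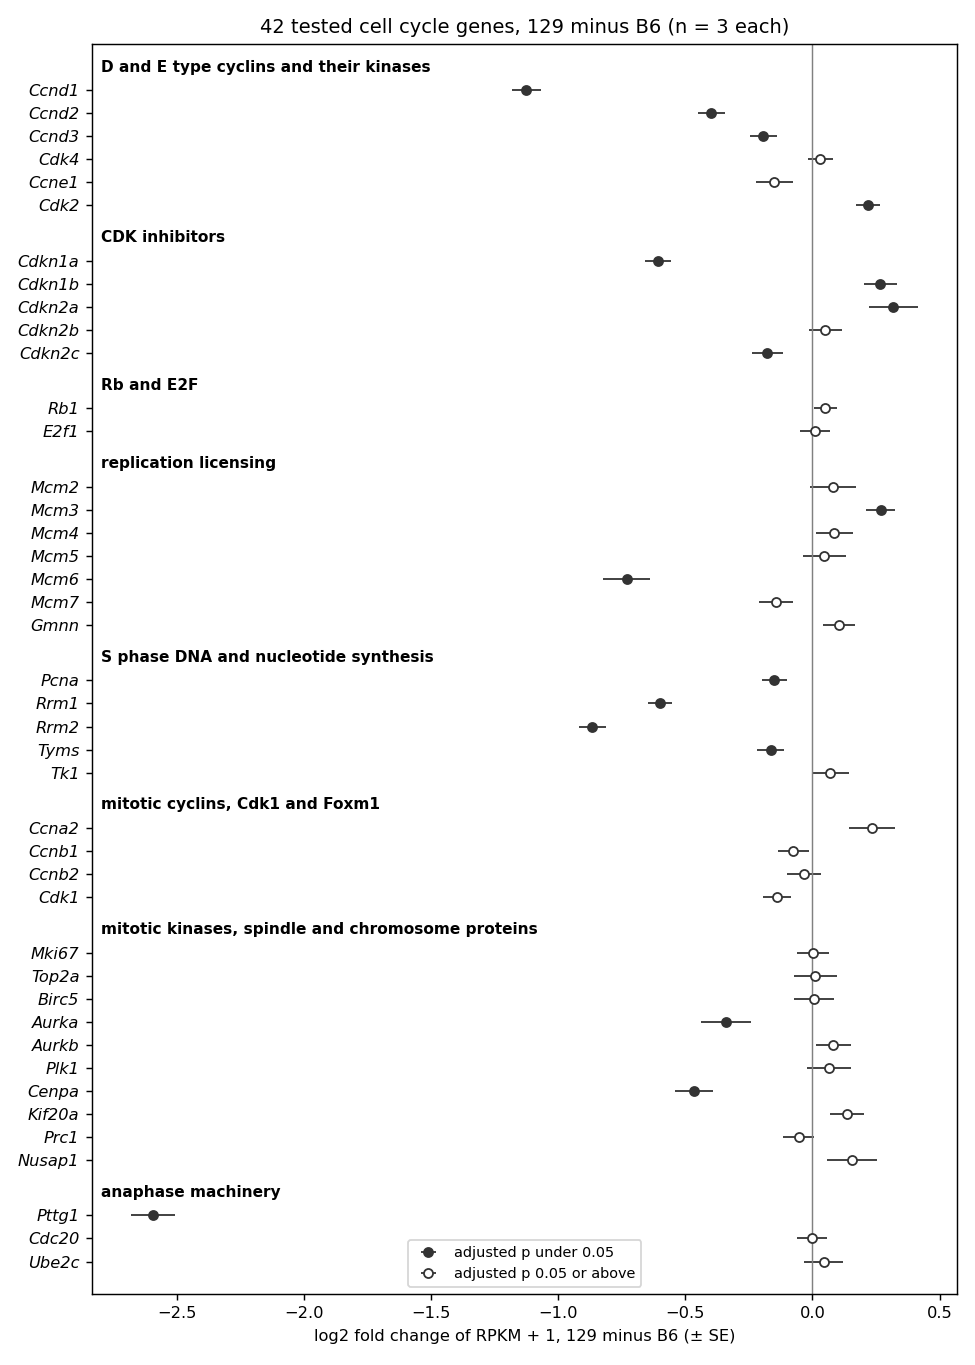
Log2 difference of RPKM + 1 for 129 minus B6 (± SE, n = 3 each) of the 42 tested cell cycle genes by role, with filled points at an adjusted p under 0.05. Pttg1 at -2.59, Ccnd1 at -1.12 and Rrm2 at -0.87 lie farthest to the left, while most mitotic genes lie near 0.

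In F1, most mitotic genes had a mean below both parental means. Of the 42 members tested, 4 were higher and 19 lower in F1 than in B6 (54.8% called), against 31.2% of all genes, of which 11.0% were called higher and 20.2% lower. The libraries did not overlap in 27, against 44.2% of all genes. Against 129, 6 were higher and 14 lower (47.6% called), against 27.7% of all genes, of which 12.0% were called higher and 15.7% lower. The libraries did not overlap in 26, against 44.5% of all genes. With libraries rescaled by the median of ratios this split was 9 higher and 12 lower. Leaving out 129 replicate 1, or F1 replicate 3, gave 13 calls in place of 20. Against the mid-parent value, which is the mean of the 129 and B6 log2 means, 5 members were higher and 17 lower (52.4% called), against 23.2% of all genes, of which 8.35% were called higher and 14.8% lower. Leaving out F1 replicate 3 gave 12 calls in place of 22. These contrasts share the F1 libraries, so their counts are not separate evidence.

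Among 16 mitotic genes tested other than Pttg1, 11 were lower in F1 than in B6, 10 lower than in 129 and 10 lower than the mid-parent value, and 0 were higher in any of the 3. By limma at an unadjusted p under 0.05, and in the fit on recovered reads, 0 were higher as well. Their median log2 differences were -0.26, -0.27 and -0.24, beside -0.04, -0.01 and -0.03 over all genes. Without F1 replicate 3, 6 were lower than in 129 and 6 lower than the mid-parent value. All 3 F1 libraries lay below all 6 parental ones in 10 of these 16 genes, against 9.70% of all genes tested, and above them in 0, against 5.72%. With the mitotic genes that were not tested, this held for 13 of 21. The F1 mean was below both parental means in 20 of 21 (95.2%), in 10 of the 29 members outside mitosis (34.5%) and in 36.0% of all genes tested. The exception among the 21 was Cenpa. The counts over 21 and 29 members include genes not tested, whereas the shares of all genes cover tested genes only.

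Plk1, the Polo-like kinase, had 0.869, 1.09 and 1.03 RPKM in F1, 1.62, 1.87 and 1.42 in 129, and 1.33, 1.76 and 1.47 in B6. The F1 libraries were the lowest of all, at 0.632 times the mid-parent RPKM, and the difference from the mid-parent value was -0.37 (SE 0.08, limma adjusted p = 0.00631). Mki67, the proliferation marker Ki-67, had 0.803, 0.890 and 0.986 RPKM in F1, 1.39, 1.32 and 1.27 in 129, and 1.39, 1.32 and 1.26 in B6. The parental libraries overlapped, all F1 libraries were below them, and F1 was lower than the mid-parent value (log2 difference -0.30, SE 0.05, limma adjusted p = 0.0036). Mki67 passed the filter only through the parental libraries, where it was high, and the counts of genes lower in F1 include it.

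Ccnb1, cyclin B1, had 2.17, 2.07 and 2.34 RPKM in F1, 3.25, 2.84 and 2.73 in 129, and 3.13, 3.07 and 3.22 in B6, again with every F1 library below every parental one. Its difference from the mid-parent value was -0.34 (SE 0.05, limma adjusted p = 0.00153). Top2a, the topoisomerase that untangles sister chromatids, had 2.06, 1.95 and 2.09 RPKM in F1, 3.43, 2.84 and 2.40 in 129, and 2.98, 2.84 and 2.70 in B6. It was lower in F1 than the mid-parent value (log2 difference -0.35, SE 0.07, limma adjusted p = 0.00753). In the Cdc20 values given above, too, every F1 library was below every parental one, with a log2 difference of -0.30 from the mid-parent value (SE 0.05, limma adjusted p = 0.00231).

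Other mitotic genes were called as well. Ccnb2, whose promoter is printed above, had 1.48 ± 0.115 RPKM in F1, 1.92 ± 0.163 in 129 and 1.99 ± 0.130 in B6 (F1 minus mid-parent -0.26, limma adjusted p = 0.00953). Prc1, which bundles microtubules of the central spindle, had 2.24 ± 0.0760 RPKM in F1, 2.69 ± 0.223 in 129 and 2.83 ± 0.145 in B6 (-0.22, limma adjusted p = 0.014). Ube2c was lower in F1 than the mid-parent value (log2 difference -0.26, limma adjusted p = 0.0185). Cyclin A2, from Ccna2, and the mitotic kinesin gene Kif20a had their lowest mean in F1 and their highest in 129. Of their exon lengths, 13.4% of Ccna2 overlaps a gene on the opposite strand, and 28.6% and 5.86% of Kif20a overlap Cdc23 and Brd8 on the opposite strand, so reads there may belong to either gene.

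Ccna2 had 1.34 ± 0.229 RPKM in F1, 2.01 ± 0.293 in 129 and 1.55 ± 0.132 in B6, and was lower in F1 than in 129 (log2 difference -0.37, limma adjusted p = 0.0129). Kif20a had 1.76 ± 0.156 RPKM in F1, 2.35 ± 0.201 in 129 and 2.04 ± 0.0873 in B6, lower in F1 than in 129 (log2 difference -0.28, limma adjusted p = 0.0109). Cdk1, Aurka and Cenpa were lower in F1 than in B6, with log2 differences of -0.21, -0.40 and -0.32 (limma adjusted p = 0.0152, 0.0123 and 0.00953), but were not called between F1 and 129. Birc5, Aurkb and Nusap1, which encode survivin, the kinase Aurora B and a spindle protein, passed in no contrast, with adjusted p of 0.0676 or more between F1 and 129.

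Several of these calls were lost in other settings. In F1 against 129, the calls of Ccna2, Mcm4 and Tk1 were lost without 129 replicate 1 and without F1 replicate 3, that of Prc1 in 8 of 15 settings, and those of Ube2c and Ccnb2 in 4 and 3. In F1 against B6, the call of Ube2c was lost in 6 of 16 settings, that of Cdk1 without F1 replicate 2 or 3, and that of Plk1 without F1 replicate 1. Against the mid-parent value, those of Ccna2 and Tyms were lost in 8 of 15 settings. The 5 mitotic genes outside the filter were fitted with all genes kept in. In F1 minus B6 the differences were -0.22 for Bub1, a checkpoint kinase, -0.27 for Kif11, the kinesin that separates spindle poles, and -0.16 for Cenpe, a kinetochore kinesin (limma adjusted p = 0.016, 0.012 and 0.014). In F1 minus 129 these 3 were not called, with differences of -0.15 for Bub1, -0.18 for Kif11 and -0.11 for Cenpe (limma adjusted p = 0.0678, 0.0652 and 0.0598). In F1 minus B6, Bub1b, another checkpoint kinase, gave -0.19 (limma adjusted p = 0.109), and Foxm1, the transcription factor of mitotic genes, gave -0.01 (limma adjusted p = 0.977).

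The F1 libraries with low mitotic RNA also had low progenitor markers. Of 9 progenitor markers tested, 7 were lower in F1 than the mid-parent value and 0 higher, against 14.8% lower and 8.35% higher over all genes. Of 6 tested markers of smooth muscle and pericytes, 5 were lower and 1 higher. F1 libraries were also the deepest. The part of these markers and of depth in the mitotic result was not tested. In bulk RNA, fewer dividing cells and less RNA of these genes per cell cannot be told apart.

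**Figure D4:**
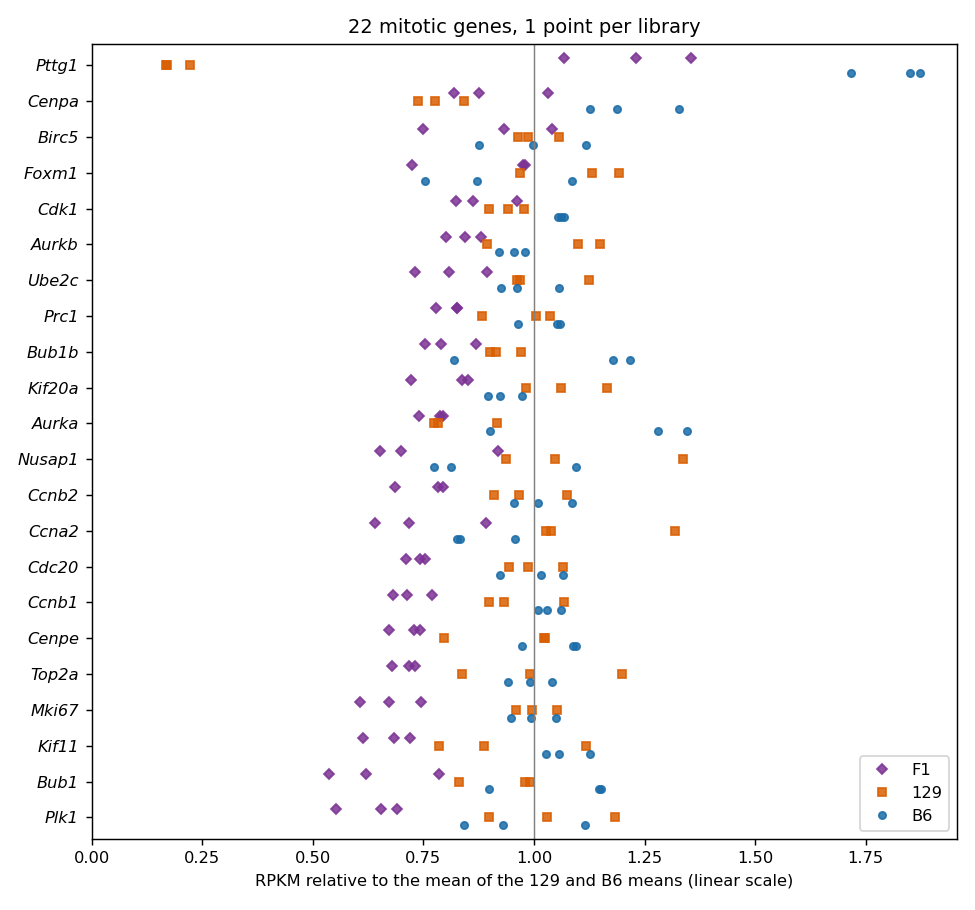
RPKM of 22 mitotic genes relative to the mean of the 129 and B6 means (linear axis), with 1 point per library in F1, 129 and B6. In Plk1, Bub1, Kif11, Mki67, Top2a, Ccnb1 and Cdc20 all F1 points lie left of all parental points, whereas in Pttg1 the F1 points lie between those of 129 and B6.

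Genes acting before mitosis showed other patterns in F1. Gmnn, geminin, which blocks the licensing factor Cdt1, had the largest rise of any member against B6, with 14.1, 13.1 and 12.4 RPKM in F1, 9.42, 9.89 and 9.93 in 129, and 8.86, 8.35 and 9.81 in B6. All F1 libraries were above all parental ones. The difference was 0.51 against B6 (SE 0.06, limma adjusted p = 0.000186), 0.40 against 129 (SE 0.06, limma adjusted p = 0.000979) and 0.45 against the mid-parent value (SE 0.05, limma adjusted p = 0.000303). Across the 25 tested members outside mitosis, all F1 libraries lay above all parental ones in 3 genes, Gmnn, Cdkn1b and Cdkn2b. They lay below them in 2, Mcm4 and Tk1. Over all genes tested, these shares were 5.72% above and 9.70% below, so such small counts do not set these members apart.

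Cdkn2b, the inhibitor p15, had 30.9 ± 1.99 RPKM in F1, 27.0 ± 1.37 in 129 and 26.1 ± 2.07 in B6, higher in F1 than in B6 by 0.24 (limma adjusted p = 0.0193). Cdkn1b was higher in F1 than in B6 by 0.34 (limma adjusted p = 0.00257) and than the mid-parent value by 0.21 (limma adjusted p = 0.0219). The Cdkn2b call against B6 was lost without B6 replicate 1 or 3 or F1 replicate 2. Cdkn2b was also higher than the mid-parent value by 0.21 (limma adjusted p = 0.0223), a call lost without F1 replicate 1 or 2. The Cdkn1b call against the mid-parent value was lost without F1 replicate 2 or 3. Cdk2 was higher in F1 than in B6 by 0.26 (limma adjusted p = 0.0025).

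In Ccnd1, Rrm2, Cdkn1a and Rrm1, all low in 129, F1 was nearer to 129 than to B6 on the log2 scale. Ccnd1 was lower in F1 than in B6 (log2 difference -0.84, limma adjusted p = 4.43e-06) and higher than in 129 by 0.28 (limma adjusted p = 0.00479). Rrm2 was lower in F1 than in B6 and higher than in 129, with log2 differences of -0.66 and 0.20 (limma adjusted p = 1.41e-05 and 0.0188). Cdkn1a gave -0.40 and 0.20 (limma adjusted p = 0.000253 and 0.0144) and Rrm1 gave -0.37 and 0.23 (limma adjusted p = 0.000288 and 0.00574), in the same order. Ccnd2 and Mcm6 were lower in F1 than in B6, with log2 differences of -0.42 and -0.59 (limma adjusted p = 0.000236 and 0.000839), and were not called between F1 and 129. The calls of Rrm2 and Cdkn1a against 129 were lost with some single libraries left out, Cdkn1a only without 129 replicate 1.

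Tk1, thymidine kinase, had 2.29 ± 0.0872 RPKM in F1, 3.0 ± 0.198 in 129 and 2.81 ± 0.361 in B6, and was lower in F1 than in 129 (log2 difference -0.28, limma adjusted p = 0.0164). Mcm4 had 3.11 ± 0.0979 RPKM in F1, 4.0 ± 0.513 in 129 and 3.70 ± 0.240 in B6, likewise lower than in 129 (log2 difference -0.28, limma adjusted p = 0.0171). Mcm3 was lower in F1 than in 129 (log2 difference -0.27, limma adjusted p = 0.00686) and equal between F1 and B6 to 2 decimals. Mcm5, at 0.967 ± 0.0764 RPKM in F1, 1.35 ± 0.113 in 129 and 1.28 ± 0.234 in B6, was lower in F1 than in 129 (log2 difference -0.25, limma adjusted p = 0.0451), a call lost in 9 of 15 settings. Tyms was lower in F1 than in B6 (log2 difference -0.24, limma adjusted p = 0.00654).

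Other genes of the same pathways were read from wider lists. Among 11 tested genes of separase and cohesin, which act with securin, limma called 0 in 129 against B6, where 37.5% of all genes were called. At an unadjusted p under 0.05, 1 of the 11 was lower, and 5348 of all 11542 genes passed. The fit on recovered reads also called 0 of the 11. The cohesin subunit gene Rad21 was higher in F1 than in 129, and Stag2, another subunit gene, chosen after its values were seen, was higher in F1 than in B6 by 0.20 (limma adjusted p = 0.0123). The difference of Rad21 was 0.13 (limma adjusted p = 0.0388), and its call was lost in 7 settings. Of 15 tested genes of the anaphase promoting complex, 1 was higher and 2 lower in 129 than in B6, a share of 20%, against 37.5% of all genes. Between F1 and either parent limma called 0, against 31.2% of all genes for B6 and 27.7% for 129. The fit on recovered reads called 0 there too. At an unadjusted p under 0.05, 1 was higher and 2 lower in F1 than in B6, and 2 higher and 0 lower than in 129. Of all 11542 genes, 4885 and 4447 passed that threshold in these contrasts. The lower pair between 129 and B6 was Anapc7 at -0.15 and Ube2s at -0.16 (limma adjusted p = 0.0227 and 0.0357), and the higher one Anapc4 at 0.12 (limma adjusted p = 0.0294).

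Of 7 tested genes of the spindle checkpoint, which delays anaphase, 1 was lower in 129 than in B6, and 4 were lower in F1 than in B6, 2 lower than in 129 and 0 higher. Over all genes, 37.5% were called in 129 against B6, 20.2% were lower in F1 than in B6 and 15.7% lower than in 129. Those lower in F1 than in B6 were Mad1l1, Mad2l1, Zw10 and Zwilch, the last named after its values were seen. Mad1l1, which recruits Mad2 to kinetochores, was lower in F1 than in 129 (log2 difference -0.28, limma adjusted p = 0.00294). Mad2l1, which encodes Mad2, was lower in F1 than in B6 (log2 difference -0.21, limma adjusted p = 0.0224). The call of Mad2l1 between 129 and B6 (log2 difference -0.17, limma adjusted p = 0.0483) was lost in 14 settings. With median-of-ratios rescaling the number of checkpoint genes called in F1 against B6 was 0. Of 25 genes of origin recognition and the replication fork, 2 were higher and 6 lower in 129 than in B6, a share of 32%, against 37.5% of all genes. Rpa3, a subunit of the protein that coats single-stranded DNA, led with 19.1 ± 0.655 RPKM in F1, 13.8 ± 1.45 in 129 and 18.5 ± 0.495 in B6, lower in 129 than in B6 (log2 difference -0.39, limma adjusted p = 0.000756).

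In the Rb, E2F and DREAM list, 1 of 14 was higher and 3 lower in 129 than in B6, a share of 28.6%, against 37.5% of all genes. The largest was Rbl2, the Rb relative p130 of resting cells, at 9.12 ± 0.169 RPKM in F1, 8.20 ± 0.184 in 129 and 11.0 ± 0.0266 in B6 (-0.38 for 129 minus B6, limma adjusted p = 1.92e-05). Among 14 other CDK regulators, 3 were higher and 6 lower in 129 than in B6, a share of 64.3%, against 37.5% of all genes. Ccng2, an atypical cyclin linked to arrest, had 49.7 ± 1.29 RPKM in F1, 52.9 ± 1.61 in 129 and 32.6 ± 1.43 in B6, higher in 129 than in B6 by 0.68 (limma adjusted p = 8.83e-07). Cdkn1c, the inhibitor p57, had 5.53 ± 0.527 RPKM in F1, 5.77 ± 0.813 in 129 and 8.81 ± 1.36 in B6, lower in 129 than in B6 (log2 difference -0.53, limma adjusted p = 0.0031).

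Cdkn1a is a classical p53 target, and a list of other genes of the p53 pathway was read beside it. Most genes called on it were lower in 129 and in F1 than in B6. Whether p53 activity differed was not tested. Of 14 on that list, 1 was higher and 9 lower in 129 than in B6 (71.4% called, against 37.5% of all genes), and 0 were higher and 8 lower in F1 than in B6 (57.1% called, against 31.2% of all genes). The medians were -0.30 and -0.24, beside -0.03 and -0.04 over all genes. Phlda3, a p53 target, had 184 ± 7.70 RPKM in F1, 160 ± 11.7 in 129 and 228 ± 10.3 in B6, lower in 129 than in B6 (log2 difference -0.51, limma adjusted p = 8.13e-05). Ccng1, cyclin G1, had 130 ± 5.48 RPKM in F1, 119 ± 4.77 in 129 and 159 ± 4.41 in B6, lower (log2 difference -0.42, limma adjusted p = 5.78e-05) in the same contrast, and is also on the list of CDK regulators. Mdm2, the ubiquitin ligase of p53, had 29.6 ± 0.598 RPKM in F1, 29.3 ± 0.216 in 129 and 36.3 ± 0.704 in B6, lower (log2 difference -0.30, limma adjusted p = 8.19e-05). Between F1 and 129 the list had a median of 0.02, with 3 genes higher and 2 lower (35.7% called, against 27.7% of all genes). Over all genes 12.0% were higher and 15.7% lower in that contrast. The markers of smooth muscle and pericytes moved in the same contrasts, with 4 of 6 lower in 129 than in B6 and 5 of 6 lower in F1 than in B6 (medians -0.65 and -0.69), as did both tested endothelial markers (medians -0.54 and -0.32). Their part in the p53 list was not tested.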

How the data were processed

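Poly(A) RNA of 3 F1, 3 129 and 3 B6 libraries was prepared with a stranded mRNA kit, per the labels' protocols. STAR and genome build mm9 are named in the submitters' processing notes, while the sources used here do not give the read counter, its strand setting, the annotation or versions. The deposited RPKM are assigned reads scaled by exon length and library depth, as the authors computed them. How strain differences in sequence affected alignment to mm9 was not measured.

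Of 24015 values per file, 24013 symbols remained, and 5 unnamed columns with cells in 31 places were not used. Low values gave whole reads in 100% of cases (tolerance 0.1 read), which set the depths. Exons of 8 members share bases with another gene, among them Ccne2, Kif20a, Ccnd3, Ccna2 and Cdc20 with genes on the opposite strand. Their reads may thus be split or shared. Cdc20 shares 52 of its 1784 exon bases with Elovl1, which had a mean of 38.7 RPKM. Exosc9, which overlaps Ccna2, had a mean of 11.6 RPKM, and Cdc23 and Brd8, which overlap Kif20a, had 10.8 and 9.64.

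With limma 3.58.1 under R 4.3.3, log2(RPKM + 1) was fitted with 1 mean per group and a mean-variance trend over all 9 libraries, for the 11542 genes that reached RPKM 1 in 3 or more libraries. Tests were two-sided, with Benjamini-Hochberg adjustment across those genes and calls at adjusted p under 0.05. The procedure was tested on simulated data, with changes placed only in genes of mean RPKM above 5. That check did not cover changes in lower genes, such as most mitotic members. The members and all gene lists were chosen with earlier results of these data known. Named with values were Pttg1, every member past the threshold in a pairwise contrast, the most abundant member of each role, those nearest the filter, tested genes within 500 kb of Pttg1, and up to 4 genes per wider list with the smallest p in 129 minus B6. Genes of markers were summed and not named. The alternatives were a pseudocount of 0.1, no filter, a filter at RPKM 5, median-of-ratios rescaling, a replicate block, a fit on recovered reads, the groups of the contrast alone, a mid-parent value on the RPKM scale, and each library left out. Promoters came from RefSeq, build GRCm38.p6, and were joined by symbol only.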

Additional observations from a re-analysis of the deposited data

How the results depend on the processing

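The Pttg1 calls kept direction and threshold in all alternatives, with log2 differences of -3.28 to -2.55 for 129 minus B6, -0.60 to -0.45 for F1 minus B6, 1.99 to 2.70 for F1 minus 129 and 0.25 to 1.06 against the mid-parent value. Of 2040 values of members under alternatives, 0 reversed, 130 lost the threshold and 41 gained it. Calls kept in every alternative that tested the gene were 11 of 17 for 129 minus B6 and 19 of 23 for F1 minus B6. They were 11 of 20 for F1 minus 129 and 10 of 22 against the mid-parent value. Members outside the filter at RPKM 5, such as Mki67 and Ccnb1, were tested in 15 of the 16 alternatives, so their calls were not checked under that filter. With the filter at RPKM 5, only 20 members were left to test, so the counts of calls were lower. Of these 20, 11 were called in F1 against B6, 9 in F1 against 129 and 9 against mid-parent. Of all 8111 genes tested under that filter, 2691, 2419 and 2086 were called, in the same order. With 1 library left out, the counts ranged from 12 to 20 for 129 minus B6, from 20 to 25 for F1 minus B6, from 13 to 22 for F1 minus 129 and from 12 to 24 against the mid-parent value. Rescaling by the median of ratios turned the split of all genes to 2257 higher and 1995 lower for 129 minus B6 (1834 and 2499 otherwise), to 1904 and 1591 for F1 minus B6 (1270 and 2329) and to 1425 and 1250 against the mid-parent value (964 and 1712). The cause was not tested. Deviations of libraries with the same replicate number correlated at -0.192 to 0.215, and those of libraries with different numbers at -0.2025 to 0.2314. Between 129 and B6 the same-number values were 0.0664, 0.1245 and 0.2151. Such correlations cannot settle whether the numbers pair the samples. With the replicate numbers as a block, 17 members were called in 129 against B6, 25 in F1 against B6, 22 in F1 against 129 and 21 in F1 against mid-parent. Mitotic members other than Pttg1 rest on 44 to 548 reads per library, which limits small differences.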
